A study of Homo sapiens with 12 samples.

Results

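Immediate early genes of the AP-1 and EGR families were examined in C4-2 cells treated with an inhibitor of the kinase PBK. The group was a fixed list of 10 genes, matched by symbol to the Ensembl identifiers of the count files, out of 54127 genes counted. It held the FOS family (FOS, FOSB, FOSL1, FOSL2), the JUN family (JUN, JUNB, JUND), the zinc finger factors EGR1 and EGR3, and IER2. C4-2 is an established line of prostate cancer epithelium derived from LNCaP cells. All libraries came from this line grown in RPMI with 10% serum. In 6 libraries the cells had received DMSO vehicle, and in 6 they had received PBKi (HI-TOPK32) at 1 µM, with 6 h of treatment. There was no other line or compound, so what these values show holds for one line and one compound, and nothing in the labels says whether libraries came from separate cultures. If they did not, the p-values measure technical spread.

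Immediate early genes are transcribed within minutes of a stimulus such as serum or a growth factor, without new protein synthesis, and their messages are short-lived. FOS and JUN proteins join through leucine zippers to form AP-1. JUN proteins can pair with each other, whereas FOS proteins need a partner. AP-1 binds TGACTCA and TGAGTCA, and the search below used the wider form TGANTCA, where N is any base. EGR proteins bind GC-rich DNA. Much of the early response runs from ERK kinases through ELK factors and SRF, which binds CArG boxes, and through CREB, which binds the cyclic AMP response element (CRE, TGACGTCA).

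The promoters below are printed to show where matches to elements of this kind lie. RefSeq promoter windows were found for 8 of the 9 members looked up, and FOSL1 had none. Each printed stretch is the 250 bases before the RefSeq start, read in the direction of transcription and placed on GRCh37 by exact match, and the capitals mark a CArG box, the CRE core TGACGT or the element TGACATCA, on either strand.
EGR1, chr5:137800918-137801167 (+), carries paired CArG boxes.
EGR1: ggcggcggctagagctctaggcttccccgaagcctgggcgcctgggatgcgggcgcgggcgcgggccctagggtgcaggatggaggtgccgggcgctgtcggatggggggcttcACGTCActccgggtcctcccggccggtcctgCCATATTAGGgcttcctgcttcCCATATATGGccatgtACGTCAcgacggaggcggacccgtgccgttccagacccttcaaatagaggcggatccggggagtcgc
FOS, chr14:75745281-75745530 (+), carries the CRE core.
FOS: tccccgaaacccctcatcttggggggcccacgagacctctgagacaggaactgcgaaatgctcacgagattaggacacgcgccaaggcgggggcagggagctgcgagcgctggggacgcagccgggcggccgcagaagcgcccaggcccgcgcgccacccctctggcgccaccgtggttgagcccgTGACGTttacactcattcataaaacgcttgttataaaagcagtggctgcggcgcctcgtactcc
FOSL2, chr2:28615475-28615724 (+), carries the CRE core.
FOSL2: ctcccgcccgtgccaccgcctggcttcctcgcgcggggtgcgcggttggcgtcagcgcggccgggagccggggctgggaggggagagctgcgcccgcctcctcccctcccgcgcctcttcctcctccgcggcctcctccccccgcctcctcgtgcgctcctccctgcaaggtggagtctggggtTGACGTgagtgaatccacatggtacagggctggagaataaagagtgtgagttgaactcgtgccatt
JUN, chr1:59249720-59249969 (-), carries TGACATCA.
JUN: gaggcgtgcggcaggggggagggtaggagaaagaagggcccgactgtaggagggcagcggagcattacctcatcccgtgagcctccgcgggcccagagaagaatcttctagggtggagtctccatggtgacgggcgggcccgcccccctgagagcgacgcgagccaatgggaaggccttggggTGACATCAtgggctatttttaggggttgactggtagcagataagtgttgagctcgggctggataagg
JUND, chr19:18392433-18392682 (-), carries a whole CRE.
JUND: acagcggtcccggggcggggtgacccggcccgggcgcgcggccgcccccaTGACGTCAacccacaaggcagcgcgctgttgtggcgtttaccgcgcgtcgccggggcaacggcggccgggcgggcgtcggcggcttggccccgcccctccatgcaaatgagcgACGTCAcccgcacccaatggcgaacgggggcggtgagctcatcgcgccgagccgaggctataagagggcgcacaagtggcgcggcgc

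In these 250 bases, 2 CArG boxes lay in EGR1, at -105 to -96 and -83 to -74 from the start, and none in the other 7 promoters searched, against 1.16% of 35116 RefSeq promoters of the same length with at least 1. The CRE core was found in EGR1, FOS, FOSB, FOSL2 and JUND, or 5 of 8, against 7.1% of all promoters. In FOS it lay at -64 to -59, in FOSB at -60 to -55 and in FOSL2 at -66 to -61. The FOSL2 position holds for the RefSeq start only, as the GENCODE gene starts upstream of the printed window, at 28615315. The whole CRE, which contains the core, was found in JUND only of the 8, at -200 to -193, against 1.65% of all promoters. TGACATCA lay at -67 to -60 in JUN and in none of the other members searched, against 2.37% of all promoters. No member had TGANTCA (6.57% of all promoters) or the EGR elements GCGTGGGCG and GCGGGGGCG (5.37%) in this window. JUNB and IER2 had none of the elements shown in capitals. The GC box GGGCGG was found in 6 of 8 members (42.6% of all promoters). The CCAAT box was found in 3 (32.0%). The TATA box TATAAA was found in FOS, FOSB and JUNB (10.7%). Both strands were searched for each. These matches describe letters, not binding, and bases farther upstream were not searched.

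**Figure D1:**
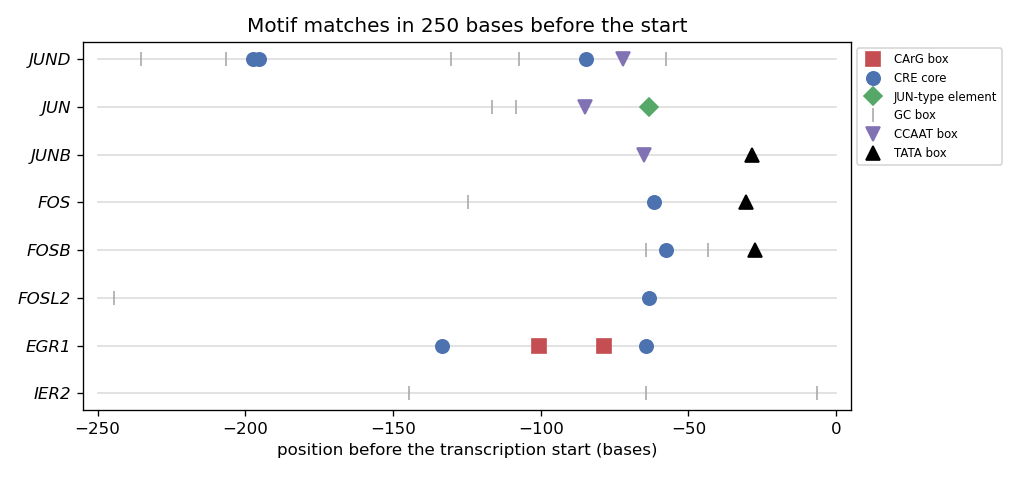
Matches to 6 motifs in the 250 bases before the RefSeq start of 8 members. The x axis gives the distance from the start in bases, each row is 1 gene and each symbol 1 match to the CArG box, the CRE core TGACGT, the JUN-type element TGACATCA, or the GC, CCAAT or TATA box. CRE cores of FOS, FOSB and FOSL2 and the TGACATCA of JUN lie between -67 and -55, and the pair of CArG boxes is in EGR1.

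Reads on genes ranged from 9663203 to 28029908 per library, and the groups did not differ detectably in depth (two-sided exact permutation test, p = 0.905). DMSO replicate 5 was the shallowest library, with 3 lanes in place of 4, and lay apart on the second principal component (-27.6, against -8.09 to 17.1 in the other DMSO libraries). That component also divided the replicates of both groups, with replicates 1 to 3 at 4.92 to 17.1 and replicates 4 to 6 at -27.6 to -3.88. No label names this division a batch, and the main test had no covariate for it. PBKi replicates 3 and 6 had the most reads outside genes, at 9.30% and 8.83%, against 5.94% to 6.81% in the other PBKi libraries. Of the luminal epithelial keratins, KRT8 averaged 154 CPM (counts normalised to library size) in DMSO and 166 CPM in PBKi, and KRT18 averaged 141 CPM in DMSO and 122 CPM in PBKi. With 4 other luminal markers they summed to 1657 to 1882 CPM in DMSO and 1439 to 1649 CPM in PBKi, lower in every PBKi library, and of these 6 markers 1 rose and 3 fell (edgeR's quasi-likelihood test, adjusted p under 0.05). The 8 immune markers summed to at most 1.14 CPM in any library, with MS4A1 at 0 throughout, and the 3 basal markers to at most 1.73 CPM. The 7 stromal and endothelial markers matched summed to 22.4 to 28.2 CPM in DMSO and 21.0 to 26.1 CPM in PBKi, most of it COL1A1.

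Levels differed widely between members. Per exon length, in RPKM (reads scaled by exon length and library size), JUND was the highest in DMSO at 48.6 ± 12.6 RPKM (SD, n = 6), followed by JUNB at 14.4 ± 3.61, IER2 at 12.6 ± 1.74, JUN at 10.6 ± 1.53 and FOSL2 at 3.67 ± 0.572 RPKM. JUNB, IER2 and JUN were neighbours whose ranges overlapped, whereas those of JUND and FOSL2 did not reach the next gene. The other 5 members were barely counted. FOS stood at 0.425 ± 0.294 RPKM, EGR1 at 0.150 ± 0.0550, FOSL1 at 0.108 ± 0.0345, FOSB at 0.0568 ± 0.0294 and EGR3 at 0.0120 ± 0.0124 RPKM in DMSO, each overlapping the next in this order. In PBKi the order of level was JUND, JUNB, JUN, IER2 and FOSL2, then EGR1, FOSL1, FOS, FOSB and EGR3. There the ranges of JUND, JUNB and JUN did not overlap, those of JUN and IER2 did, and EGR1 stood below FOSL2 without overlap. Exon lengths came from a GENCODE annotation on GRCh37 that may differ from the one used for counting.

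Of these members, 5 (JUN, JUNB, JUND, FOSL2 and IER2) had at least 10 counts in every library. Of these 5, JUNB, FOSL2 and JUN rose in PBKi, none fell past the threshold, and JUND and IER2 did not pass. Over all 14505 genes tested, 20.1% were called higher and 21.5% lower, or 41.7% in either direction (edgeR's quasi-likelihood test, Benjamini-Hochberg adjusted p under 0.05). EGR1 reached 10 counts in 2 DMSO and 4 PBKi libraries and so just entered the test, where it was called higher. That entry rested mostly on PBKi, the group where EGR1 is higher, so its call is no support. FOS, with 10 counts in 5 DMSO libraries and no PBKi library, just missed the test. FOSB, FOSL1 and EGR3 were far from it, with 10 counts in no library. The median log2 fold change of all genes tested was -0.012. In bulk RNA, fewer cells expressing a gene and less RNA per cell cannot be told apart.

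**Figure D2:**
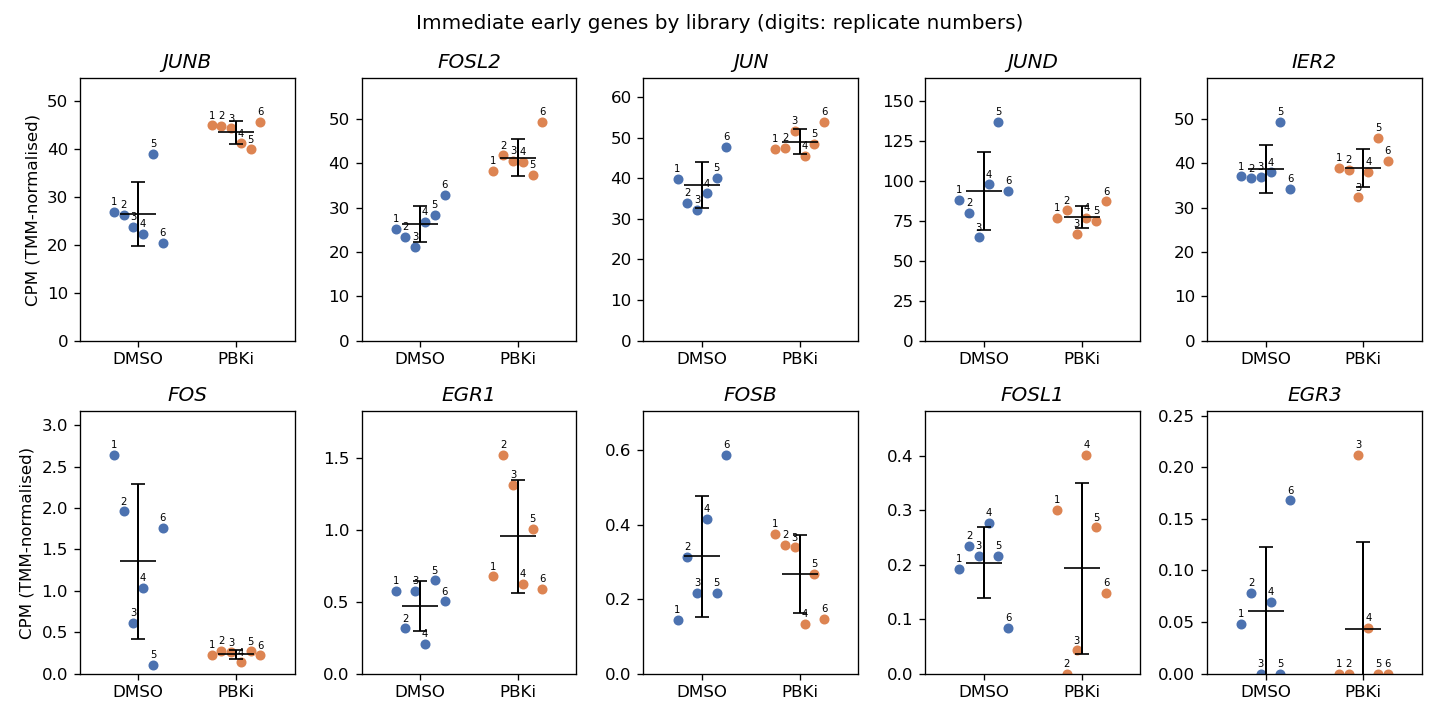
Normalised counts (CPM, y axis from 0) of the 10 members in each library. Points are libraries with their replicate number, horizontal bars the mean and vertical bars 1 SD (n = 6), cut off at 0. All PBKi libraries lie above all DMSO libraries for JUNB and FOSL2, FOS is spread from 0.108 to 2.64 CPM in DMSO and bunched in PBKi, and DMSO replicate 5 is the highest DMSO library for JUNB, JUND and IER2.

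JUNB encodes a JUN protein that often opposes JUN on shared targets. Its gene (ENSG00000171223, 1 exon) lies on the plus strand of GRCh37 chromosome 19 from 12902300 to 12904129. In DMSO its level ran from 20.4 to 38.9 CPM with a median of 25.0, and in PBKi from 39.9 to 45.6 CPM with a median of 44.5. All 6 PBKi libraries lay above all 6 DMSO libraries, with DMSO replicate 5 the nearest, the other 5 DMSO libraries being at 26.8 CPM or lower. JUNB rose from 26.4 ± 6.60 to 43.4 ± 2.34 CPM (SD, n = 6 each). On the log2 scale PBKi exceeded DMSO by 0.73 (SE 0.11, edgeR's quasi-likelihood test, adjusted p = 4.51e-05). The exact permutation test gave p = 0.00216, the smallest that 6 against 6 allows. JUNB shares 259 exon bases, 14.2% of its exon length, with HOOK2 on the opposite strand, and reads there cannot be assigned when strand is not used. HOOK2 went from 50.9 ± 3.57 to 66.4 ± 3.67 CPM (log2 fold change 0.39, adjusted p = 3.58e-05, same edgeR test). The share of reads set aside as ambiguous between genes was also higher in PBKi (4.16% to 4.35%) than in DMSO (3.87% to 4.10%; exact permutation p = 0.00216), and its part in the JUNB value was not tested.

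FOSL2 encodes FRA2, a FOS family protein without the strong activation domain of FOS. The gene (ENSG00000075426) lies on the plus strand of chromosome 2 from 28615315 to 28640184. Its level ran from 21.2 to 32.9 CPM in DMSO (median 26.0) and from 37.4 to 49.3 CPM in PBKi (median 40.4). Again no PBKi library overlapped DMSO, and FOSL2 was the only FOS family member counted well in these cells. It rose from 26.3 ± 4.09 to 41.3 ± 4.23 CPM (SD, n = 6 each). The log2 difference was 0.66 (SE 0.093, edgeR's quasi-likelihood test, adjusted p = 2.27e-05, exact permutation p = 0.00216). JUNB and FOSL2 were thus without overlap, as were 10.5% of all genes tested in the higher direction. No tested member was lower in PBKi without overlap, against 9.68% of all genes.

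JUN, the founding AP-1 subunit and the main target of JNK, lies on the minus strand of chromosome 1 from 59242517 to 59249720 (ENSG00000177606). It ran from 32.2 to 47.8 CPM in DMSO (median 38.1) and from 45.5 to 53.9 CPM in PBKi (median 48.0). Of the PBKi libraries 3 lay above every DMSO library, and DMSO replicate 6, at 47.8 CPM, reached into the PBKi range. The rise, from 38.3 ± 5.55 to 49.1 ± 3.11 CPM (SD, n = 6 each), was smaller than in JUNB and FOSL2, at 0.36 on the log2 scale (SE 0.081, edgeR's quasi-likelihood test, adjusted p = 0.00171, exact permutation p = 0.00866). In replicates 4 to 6 alone its log2 fold change was 0.25 and did not pass (edgeR adjusted p = 0.132).

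JUND, the JUN protein that is expressed steadily and is tied to slower growth, lies on the minus strand of chromosome 19 from 18390504 to 18392432 (ENSG00000130522, 1 exon). It ran from 64.8 to 137 CPM in DMSO (median 91.1) and from 66.7 to 87.3 CPM in PBKi (median 77.0). The PBKi range lay inside the DMSO range, and DMSO replicate 5 was the highest library. The mean was 93.7 ± 24.2 CPM in DMSO and 77.4 ± 6.89 CPM in PBKi (SD, n = 6 each). This log2 value of -0.27 did not pass (SE 0.12, edgeR's quasi-likelihood test, adjusted p = 0.0956, exact permutation p = 0.143). With no filter on low counts JUND was called lower (-0.26, SE 0.077, edgeR adjusted p = 0.00721), in a fit with a smaller standard error than the main one. It was also called lower with a covariate dividing replicates 1 to 3 from 4 to 6 (-0.25, edgeR adjusted p = 0.0478). Without DMSO replicate 5 it was -0.13 (edgeR adjusted p = 0.271), and without DMSO replicate 3, the lowest library, -0.35 (edgeR adjusted p = 0.0123). Replicates 1 to 3 alone gave -0.041, and replicates 4 to 6 alone -0.46 (edgeR adjusted p = 0.765 and 0.0278). The test of that difference gave an unadjusted p of 0.0424 and an edgeR adjusted p of 0.927 over all genes.

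IER2, a nuclear immediate early protein of less certain function, lies on the plus strand of chromosome 19 from 13261225 to 13265725 (ENSG00000160888). It ran from 34.2 to 49.3 CPM in DMSO (median 37.0) and from 32.4 to 45.7 CPM in PBKi (median 38.7). The groups overlapped over nearly their whole range, with means of 38.7 ± 5.36 and 39.0 ± 4.31 CPM (SD, n = 6 each). The log2 fold change of 0.016 had a standard error of 0.087 (edgeR adjusted p = 0.903). IER2 shares 662 and 946 exon bases with a pair of long noncoding genes on the opposite strand that the count files do not list.

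EGR1, a zinc finger factor that ERK signalling switches on through CArG boxes, lies on the plus strand of chromosome 5 from 137801168 to 137804992 (ENSG00000120738). It was close to the limit of counting, with 3 to 31 reads per library and 47 in all DMSO against 99 in all PBKi libraries. Its level ran from 0.208 to 0.649 CPM in DMSO (median 0.540) and from 0.591 to 1.52 CPM in PBKi (median 0.842). Of the PBKi libraries 4 lay above every DMSO library, led by replicates 2 and 3, and the other PBKi libraries overlapped. EGR1 rose by 0.99 on the log2 scale (SE 0.30, edgeR's quasi-likelihood test, adjusted p = 0.0139, exact permutation p = 0.0108). It entered the edgeR test mostly through its PBKi libraries, so that call is no support. In replicates 4 to 6 alone EGR1 was at 0.77 and did not pass (edgeR adjusted p = 0.274). Pooled over libraries it was 0.485 CPM in DMSO (exact 95% Poisson interval 0.356 to 0.645) and 0.968 CPM in PBKi (0.787 to 1.18), where the intervals cover counting error only. EGR3, a related factor (ENSG00000179388), had 5 reads in all DMSO and 6 in all PBKi libraries, 5 of the latter in PBKi replicate 3, and no difference was detectable at this depth.

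FOS moved the other way. The gene, on the plus strand of chromosome 14 from 75745529 to 75748933 (ENSG00000170345), had 134 reads in all DMSO and 23 in all PBKi libraries. Its level ran from 0.108 to 2.64 CPM in DMSO (median 1.40) and from 0.134 to 0.276 CPM in PBKi (median 0.240). In 5 DMSO libraries FOS was above every PBKi library, and in DMSO replicate 5, with 1 read, it was below all of them. The exact permutation test over 12 libraries gave a difference in mean log2 CPM of -1.71 (two-sided exact p = 0.0152). With 1 library left out the difference ran from -2.17, without DMSO replicate 5, to -1.45 (two-sided exact permutation p from 0.00216 to 0.0346). In lanes 6 to 8 alone it was -1.45 (two-sided exact permutation p = 0.0303). The pooled counts were 6.15 times higher in DMSO than in PBKi (exact 95% interval 3.93 to 10.0, counting error only). With no filter on low counts, edgeR's quasi-likelihood test gave -2.58 on the log2 scale (SE 0.36, adjusted p = 2.67e-09 over 33052 genes). In that fit 8.8% of genes were called lower and 10.2% higher. It gave the well-counted members smaller standard errors than the filtered fit (0.077 against 0.12 for JUND). Its adjusted p for FOS may therefore understate the spread among DMSO libraries.

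FOSB and FOSL1 (FRA1), the remaining FOS family genes, stayed near the limit of counting in both groups. FOSB (ENSG00000125740, plus strand of chromosome 19, 45971253 to 45978437) had 2 to 8 reads per library and ran from 0.144 to 0.587 CPM in DMSO and from 0.134 to 0.376 CPM in PBKi (two-sided exact permutation p = 0.632). FOSL1 (ENSG00000175592, minus strand of chromosome 11, 65659520 to 65668044) had 20 reads in all libraries of either group, with 0 in PBKi replicate 2. It ran from 0.0839 to 0.277 CPM in DMSO and from 0 to 0.401 CPM in PBKi (two-sided exact permutation p = 0.587). For FOSL1 the pooled intervals of 0.126 to 0.319 CPM in DMSO and 0.120 to 0.302 CPM in PBKi (exact 95% Poisson) nearly coincide, and no difference was detectable at this depth.

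**Figure D3:**
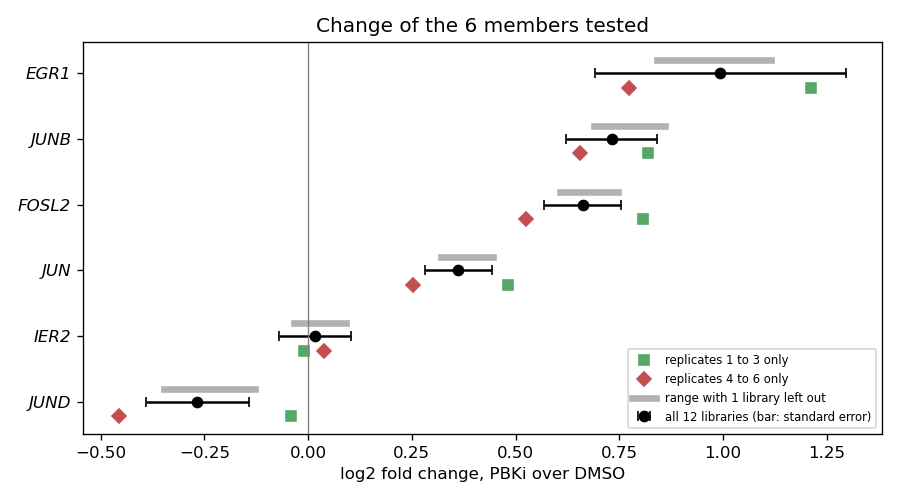
Log2 fold change of PBKi over DMSO (x axis) for the 6 members tested. Black points with bars are the value over 12 libraries with its standard error, grey bars the range with 1 library left out, squares replicates 1 to 3 alone and diamonds replicates 4 to 6 alone. JUNB, FOSL2, JUN and EGR1 are above 0 in every setting drawn, IER2 lies on both sides of 0 and JUND runs from -0.46 to -0.041 between the sets of replicates.

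Because family members compete for partners, their make-up was described per length within each library. The 7 FOS and JUN family transcripts summed to 77.8 ± 16.2 RPKM in DMSO and 83.4 ± 4.98 RPKM in PBKi (SD, n = 6 each), with overlapping ranges. Of this sum, the part of JUND was 57.2% to 66.1% in DMSO libraries, against 43.8% to 49.3% with PBKi. For JUNB it was 14.2% to 22.1% in DMSO libraries, against 27.0% to 30.7% with PBKi. The groups did not overlap in either share. The share of JUN was 13.9% ± 2.22 in DMSO and 16.3% ± 1.05 in PBKi, and that of FOSL2 4.79% ± 0.705 and 6.90% ± 0.388 (SD, n = 6 each). The ratio of JUNB to JUND per length, which no scaling of libraries can alter, was 0.303 ± 0.0607 in DMSO and 0.595 ± 0.0563 in PBKi (SD, n = 6 each). In DMSO replicate 5, where both genes were high, it was 0.300, within the range of the other DMSO libraries (0.229 to 0.386), and it was 0.550 to 0.700 in PBKi. FOS contributed 0.0316% to 1.09% in DMSO and 0.0520% to 0.106% in PBKi. These shares describe the same values as above and carry no test.

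**Figure D4:**
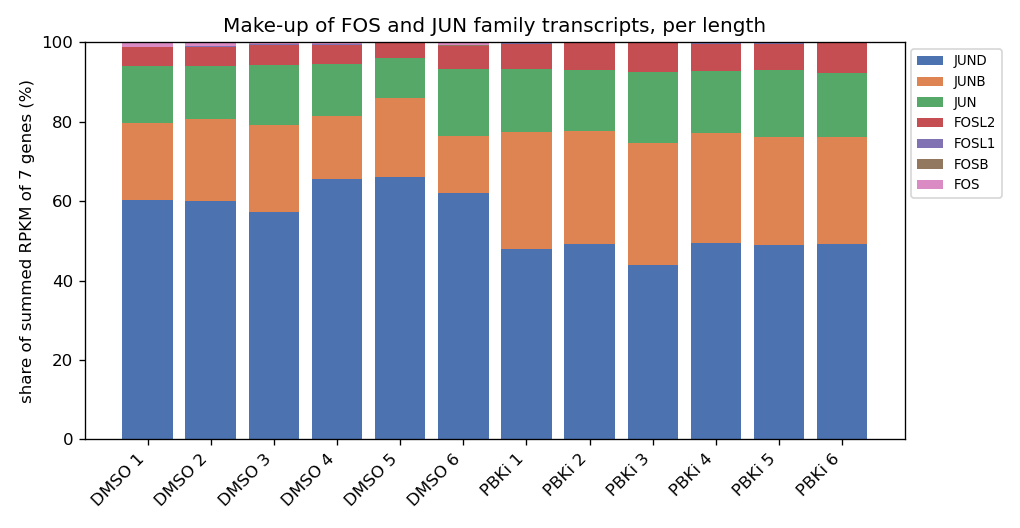
Share of each FOS and JUN family gene in their summed RPKM (y axis, percent) for each of the 12 libraries. Each bar is 1 library and the colours are genes. JUND takes 57.2% to 66.1% in DMSO and 43.8% to 49.3% in PBKi, while the share of JUNB is larger in every PBKi library than in any DMSO library.

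Of 34 other immediate early genes listed, 29 were tested, of which 12 rose, 6 fell and 11 did not pass (edgeR's quasi-likelihood test, adjusted p under 0.05), with a median log2 fold change of 0.017 against -0.012 over all genes. The 41.4% that rose stand beside 20.1% of all genes, and the 20.7% that fell are near the 21.5% of all genes. The list was written with earlier results of these data known, so its larger share of rises is no support. ATF3, a stress-induced bZIP factor that pairs with JUN proteins, rose from 43.6 ± 6.25 to 138.6 ± 18.4 CPM (SD, n = 6 each), or by 1.67 on the log2 scale (SE 0.097, edgeR adjusted p = 5.86e-10). ATF3 ran from 33.4 to 50.2 CPM in DMSO and from 115 to 170 CPM in PBKi, so the groups lay far apart. The other rises with the smallest adjusted p were in ID1 (log2 fold change 2.03) and ID2 (1.58), which encode inhibitors of bHLH factors, and in IER5L (1.46). The falls with the smallest adjusted p were in PHLDA1 (-1.46), the oncogene MYC (-0.73), the neuronal activity gene ARC (-0.85) and the nuclear receptor NR4A1 (-0.54), with edgeR adjusted p from 4.40e-09 to 3.29e-05. Of the EGR family, EGR2 had 4 reads in all DMSO and 21 in all PBKi libraries and EGR4 had 0 in every library, and neither was tested. For EGR4, an upper limit set at 3 reads is 0.0305 CPM over the DMSO and 0.0298 CPM over the PBKi libraries. That limit is per raw reads on genes, without TMM scaling.

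Among regulators and dimer partners, 28 of 30 listed genes were tested, of which 1 rose, 9 fell and 18 did not pass (median log2 fold change -0.052, same edgeR test). The 35.7% called in either direction compare with 41.7% of all genes, the 3.57% that rose with 20.1% and the 32.1% that fell with 21.5%. SRF, the CArG-binding factor, fell from 60.8 ± 7.74 to 45.1 ± 4.78 CPM (SD, n = 6 each), by -0.43 on the log2 scale (edgeR adjusted p = 0.000694), although the lowest DMSO and highest PBKi libraries met, at 50.7 CPM. Its ERK-responsive partner ELK4 changed by -0.23 on the log2 scale (edgeR adjusted p = 0.0405). The other SRF partners on the list did not pass (log2 fold changes from -0.083 to 0.19, same edgeR test). JDP2, which encodes a repressor that pairs with JUN, went from 25.3 ± 2.43 to 17.0 ± 1.68 CPM (log2 fold change -0.56, edgeR adjusted p = 2.65e-05), with no overlap between groups. BATF3, another JUN partner, had a log2 fold change of -0.81 (edgeR adjusted p = 0.00167). The JNK genes MAPK8 (-0.40) and MAPK9 (-0.26) were lower without overlap (edgeR adjusted p = 3.88e-05 and 0.000366), whereas MAP2K4, which encodes a JNK kinase, was the riser at 0.14 (edgeR adjusted p = 0.0313). The EGR corepressors NAB1 and NAB2 had log2 fold changes of 0.017 and 0.037 (standard errors 0.085 and 0.097) and did not pass.

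Of 24 genes often named as AP-1 targets, only 8 had enough counts to be tested, of which 3 rose, 2 fell and 3 did not pass (median log2 fold change 0.077, same edgeR test), against 20.1% of all genes higher and 21.5% lower. The collagenase MMP13 rose from 0.952 ± 0.236 to 8.19 ± 2.04 CPM (SD, n = 6 each), by 3.15 on the log2 scale (edgeR adjusted p = 1.74e-09). The chemokine CXCL8 went from 4 reads in all DMSO libraries to 238 in all PBKi libraries. It entered the test only through its PBKi libraries, so its call is no support, and without it 2 of 7 rose and 2 fell. VEGFA, an angiogenic factor, rose slightly (log2 fold change 0.23, edgeR adjusted p = 0.0273). The integrin gene ITGA2 (-0.58) and the cyclin gene CCND1 (-0.30) fell (edgeR adjusted p = 5.22e-05 and 0.00362). Other matrix metalloproteinase genes on the list were not tested for want of counts.

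**Figure D5:**
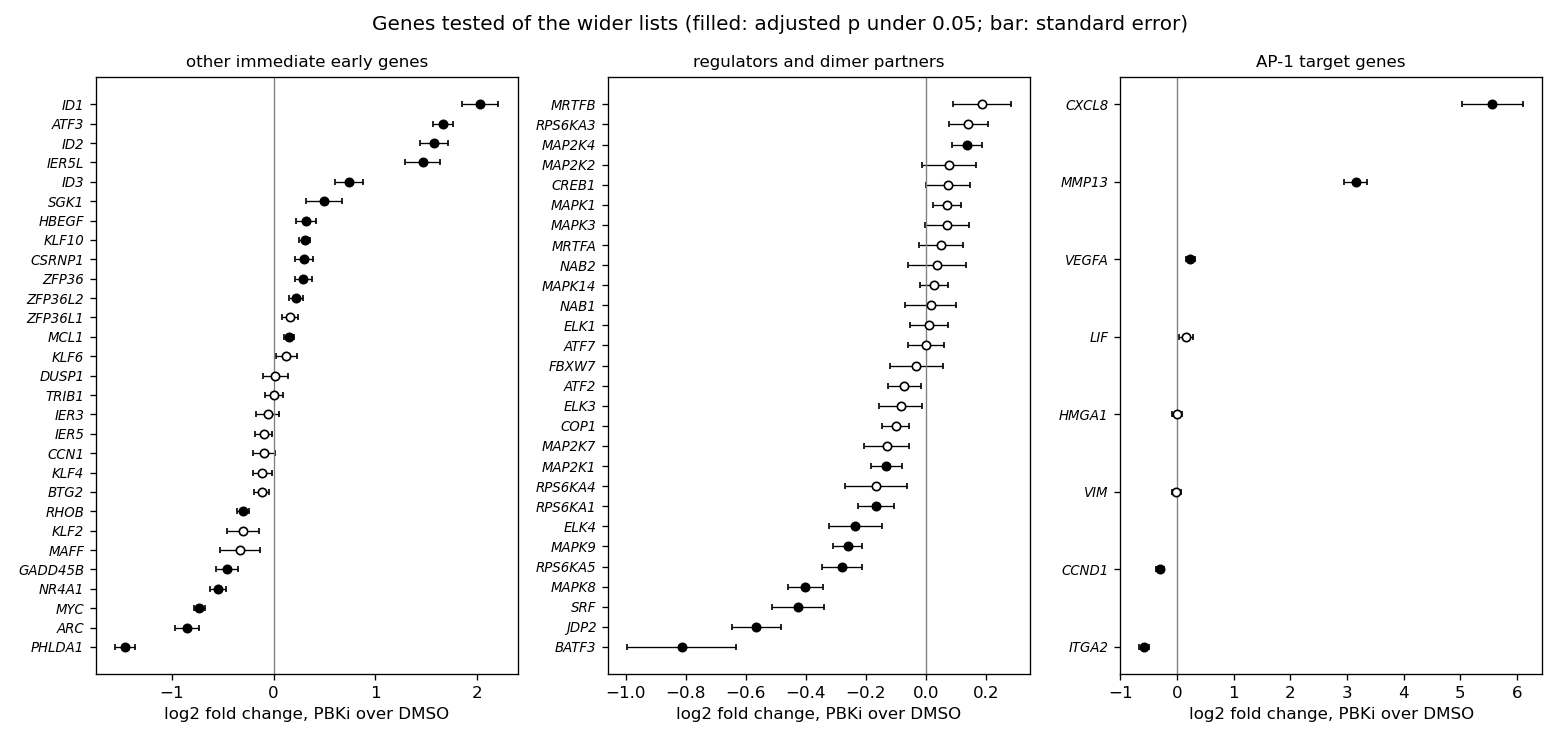
Log2 fold change of PBKi over DMSO (x axis, a different range in each panel) with its standard error for the tested genes of the 3 wider lists. Filled points have an adjusted p under 0.05. Among other immediate early genes 12 rose and 6 fell, among regulators and dimer partners 1 rose and 9 fell, and among AP-1 target genes 3 rose and 2 fell.

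Within groups, the variation of FOS had a close match. Over 12 libraries, with each group centred on its mean, the gene most like FOS of 9998 compared was DUSP1, which encodes a MAP kinase phosphatase and is itself an immediate early gene (Pearson r = 0.92, Spearman rho = 0.77). DUSP1 ran from 9.30 CPM in DMSO replicate 5 to 17.6 CPM in DMSO replicate 6, and from 13.5 to 15.3 CPM in PBKi. Its means of 14.0 ± 3.32 and 14.2 ± 0.804 CPM did not differ past the threshold (log2 fold change 0.017, standard error 0.12, edgeR adjusted p = 0.925). FOS and DUSP1 both varied little in PBKi (FOS from 0.134 to 0.276 CPM), so their match rests mostly on the DMSO libraries. The next genes were LZIC and HMGN2P46 for FOS, UXS1, DSEL and MINPP1 for EGR1, P4HA2, POGZ and ATOSB for JUN, and TLE6, PNKD and DUS2 for FOSL1, with r from 0.85 to 0.91. These are the highest of many values over libraries that share depth and preparation, so no test is attached, and for FOS, EGR1 and FOSL1 they rest on few reads.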

How the data were processed

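RNAseq of C4-2 cells was used, with 6 DMSO and 6 PBKi libraries grouped by their titles. The deposited values are raw counts per gene in 47 lane files, which the authors made with HTSeq-count 0.5.3p9 from single-end alignments (TopHat 2.0.4, GRCh37). The strand setting was not stated. The labels describe flow sorted cells and the methods do not. Within a library, lanes agreed within sampling noise (chi-square over degrees of freedom 0.974 to 1.04, and 3.74 to 22.2 between replicates). Lanes were summed, leaving out 5 summary rows per file.

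The 14505 genes reaching 10 counts in 6 or more libraries were tested with edgeR 4.0.16 (R 4.3.3, TMM, quasi-likelihood test without covariates, Benjamini-Hochberg adjustment over all genes, threshold 0.05). CPM values other than the EGR4 limit are TMM-normalised, and the exact permutation tests ran over all divisions of the libraries (log2 CPM, prior count 2). On simulated counts of PBKi against DMSO (14500 genes), 70% of 100 genes changed by 0.5 and 90% of 100 changed by 1 on the log2 scale were recovered. Alternatives were DESeq2 1.42.0, limma-voom (limma 3.58.1), RLE factors, other count filters, a replicate block, subsets of libraries and lanes, a covariate and a stricter threshold. Members and gene lists were chosen with earlier results of these data known. Genes named were the members, up to 4 per list and direction with the smallest adjusted p, 10 further genes fixed by name, and the 3 most similar genes for 4 members. Symbols were matched for 47098 of 54127 identifiers. A listed luminal marker is not reported here and is left out of the luminal sum.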

Additional observations from a re-analysis of the deposited data

Results flagged for a closer look

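In 4 of the 20 groups of 6 values examined, 1 library stood apart from the other 5 past Dixon's 95% limit, where chance gives about 1 in 20 groups. JUNB was 38.9 CPM in DMSO replicate 5, against 20.4 to 26.8 CPM in the other DMSO libraries. IER2 was also highest there, at 49.3 CPM against 34.2 to 38.0 CPM. FOSL2 was 49.3 CPM in PBKi replicate 6, against 37.4 to 41.7 CPM in the other PBKi libraries. EGR3 was 0.212 CPM in PBKi replicate 3, which is 5 reads, against 0 to 0.0446 CPM in the others. DMSO replicate 5 had the fewest reads and lanes, and the part of that in its values was not tested. Without it, the log2 fold change was 0.86 for JUNB and 0.092 for IER2.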

How the results depend on the processing

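JUNB and FOSL2 were called higher under every alternative run, JUN under all but replicates 4 to 6 alone (0.25), and EGR1 under all but those (0.77) and the threshold of 0.01, and EGR1 could not be fitted at 50 counts or in lanes 6 to 8, where the filter removes it. Fits on fewer libraries kept the genes that passed the filter over all 12 libraries, so EGR1, at 10 counts in 6 libraries, stayed in them. The count of members higher was 4, EGR1 included, with any 1 library left out and 2 in replicates 4 to 6. That of members lower was 0, but 2 with no count filter (FOS and JUND), 1 (JUND) with the replicate block, with a covariate dividing replicates 1 to 3 from 4 to 6, and in replicates 4 to 6 alone, and 0 to 1 with 1 library left out. Same-numbered libraries correlated by 0.0887 to 0.299, under 0.1 in 1 of 6 pairs, and were not taken as pairs. Each pair still correlated more than the median with other numbers (-0.097 to 0.0093), so independence was not shown. With the replicate block JUND was -0.24 (edgeR adjusted p = 0.0298). IER2 turned to -0.011 in replicates 1 to 3, to -0.0016 without DMSO replicate 6 and to -0.035 without PBKi replicate 5 (range with 1 library left out -0.035 to 0.092). FOSB turned to 0.021 without DMSO replicate 6 (range -0.26 to 0.021). FOSL1 turned to 0.042 without PBKi replicate 2 (range -0.38 to 0.042), to 0.045 in lanes 6 to 8 and to 0.0048 without PBKi replicates 3 and 6, a choice made after seeing the data.

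Over all genes, 1273 rose and 1207 fell in replicates 4 to 6, and 2073 fell at an adjusted p under 0.01. Of the other immediate early genes 6 rose in replicates 4 to 6 and 6 at 0.01. Of the regulators, in place of 1, 2 rose at 50 counts, 3 with the replicate block, 3 with the covariate, 4 in replicates 1 to 3, 0 in replicates 4 to 6, at 0.01 and without PBKi replicates 3 and 6, and 0 to 3 with 1 library left out, and 5 fell in replicates 4 to 6 in place of 9. The causes were not tested. Few reads limit FOS, EGR1, FOSB, FOSL1 and EGR3.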
